A study of Mus musculus with 13 samples.

Results

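The 10 genes described here coat the lipid droplet or take part in its formation and growth, and they were followed through aged aorta and gastrocnemius muscle of the mouse. They are the 5 perilipins (Plin1, Plin2, Plin3, Plin4 and Plin5), Cidec and Cideb of the CIDE family, Fitm1 and Fitm2 of the FIT family, and Bscl2, which encodes seipin. The list was taken by gene symbol, and all 10 were found among the 19838 genes of each deposited table. A lipid droplet is a store of triglyceride and sterol ester within a single layer of phospholipid, and its surface proteins decide how readily lipases reach the stored fat. Droplets bud from the endoplasmic reticulum, where seipin and the FIT proteins act, and they grow when CIDE proteins join them. Perilipin 1 and Cidec coat and enlarge the large droplets of fat cells, perilipins 2 and 3 are found on droplets of most cells, and perilipin 5 holds droplets to mitochondria in oxidative tissue.

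The 13 libraries came from mice of 88 weeks on a mixed FVBxC57BL/6 background. The controls, called Rosa26, had the genotype GFP-FOXM1dNdK-/-Rosa26-rtTAtg/+ and so carried the reverse tetracycline transactivator rtTA, which the other mice carried too. The other mice, called dNdK, had the genotype GFP-FOXM1dNdKtg/+Rosa26-rtTAtg/+, which adds a form of FOXM1, a factor of the cell cycle, joined to GFP. The groups held 4 aorta Rosa26, 2 aorta dNdK, 4 muscle Rosa26 and 3 muscle dNdK libraries, and the study asks what more FOXM1 does to the ageing of these tissues. The transgene's promoter, any doxycycline treatment and the sex of the mice are not given in the sources used here, nor is it said that libraries of a group came from separate animals. The p-values therefore measure the spread between these libraries, which may be technical.

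Each gene was read by targeted amplification (AmpliSeq) of a short stretch of its cDNA, so a count measures 1 amplicon and says nothing of length. Levels below are CPM, each gene's count scaled to a library total of 1000000 gene counts, and are compared between libraries, never between genes. The libraries held 3919526 to 13683952 gene counts. The mouse Foxm1 amplicon gave 0 to 24 counts in every library, and whether it reads the transgene is not stated, so it does not check the genotype. The 7 skeletal muscle markers summed to 119955 to 158866 CPM in muscle and to 8.20 to 63.0 CPM in aorta. The 6 smooth muscle markers summed to 265 to 633 CPM in aorta and to 200 to 292 CPM in muscle, so they set the tissues apart weakly. Of the 5 tested in Rosa26, Acta2 and Cnn1 were higher in aorta, Smtn was lower, and Myh11 and Mylk did not pass, while Tagln was at or near 0 in all 13 libraries. The aorta libraries also carried fat. The 7 adipocyte markers summed to 17807 to 26212 CPM in aorta and 1480 to 4402 CPM in 6 muscle libraries, with none at 0 throughout a group, and Ucp1, which lets brown fat make heat, had 5525 to 10148 CPM in aorta. In those 6 muscle libraries most of the sum was Car3 (1218 to 3702 CPM), while Adipoq was at 0.736 to 6.89 CPM. Muscle dNdK 3 held 19529 CPM of adipocyte markers and is given apart throughout. Heart muscle RNA (Myh6 at 394 to 911 CPM) was present in aorta Rosa26 1 and 2 and dNdK 2 and at or near 0 (at most 2.13 CPM) in the other 3. Of the 8 heart markers, Myl7, Tnnt2, Tnni3, Actc1 and Sln followed Myh6 in aorta. Myl4 and Nppa did not, and reached at most 0.323 and 1.28 CPM in any aorta library. In 6 libraries (aorta Rosa26 3 and 4, muscle Rosa26 1 and 4, muscle dNdK 1 and 3), 13.4% to 32.2% of the genes with at least 100 counts were more than 20 percentage points away from equal counts on the 2 strands, against 0.522% to 2.97% in the other 7. They are called uneven-strand and even-strand libraries here. In bulk RNA fewer cells of a type and less RNA per cell cannot be told apart.

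The genes lie on 7 chromosomes of GRCm38.p6. Plin4 (chr17:56100587-56109948), Plin5 (chr17:56111597-56117606) and Plin3 (chr17:56278962-56290511) lie in that order on the minus strand, with 1648 bases between Plin4 and Plin5 and 161355 bases between Plin5 and Plin3. Plin1 lies at chr7:79721164-79732904, Plin2 at chr4:86626910-86670217, Cidec at chr6:113424634-113435760 and Cideb at chr14:55754052-55758424, each on the minus strand, and Bscl2 at chr19:8837467-8848683 on the plus strand. Fitm1 lies at chr14:55575674-55576952 on the plus strand and Fitm2 at chr2:163468703-163472629 on the minus strand. Plin4 overlaps Hdgfl2, Cideb overlaps Nop9 and Ltb4r2, and Bscl2 overlaps Gng3. The libraries do not mark strand. Amplicon positions are not given in the sources used here, so whether a counted stretch is shared is not known. Reads marked as ambiguous between genes, at 0.0917% to 0.173% of a library, are not in the gene counts. The counts of Plin4, Cideb and Bscl2 on the 2 strands summed to at most 2 more than the count that ignores strand.

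Promoters are shown for the 4 perilipins that stand for 4 patterns in the results: Plin1 for the fat cell coat, Plin4 for the overlap of the tissues, Plin2 for its split between libraries and Plin5 for the genotypes in muscle. Each is the 250 bases before a RefSeq transcript start on GRCm38.p6, read 5′ to 3′ on the minus strand, with capitals on the matches to 2 searched motifs. These were TAAACA, a core bound by forkhead factors such as FOXM1, and AGGTCA, the hexamer bound by nuclear receptors such as the PPARs, both read on both strands.
Plin1, chr7:79732777-79733026: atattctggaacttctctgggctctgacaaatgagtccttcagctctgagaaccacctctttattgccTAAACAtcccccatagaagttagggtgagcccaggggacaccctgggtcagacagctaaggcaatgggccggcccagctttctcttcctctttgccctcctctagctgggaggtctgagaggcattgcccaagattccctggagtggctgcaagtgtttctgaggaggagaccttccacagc
Plin4, chr17:56109783-56110032: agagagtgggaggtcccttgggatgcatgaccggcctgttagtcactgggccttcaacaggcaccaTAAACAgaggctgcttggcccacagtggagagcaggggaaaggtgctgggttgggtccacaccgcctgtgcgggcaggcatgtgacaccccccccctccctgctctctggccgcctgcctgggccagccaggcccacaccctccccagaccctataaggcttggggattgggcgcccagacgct
Plin2, chr4:86670060-86670309: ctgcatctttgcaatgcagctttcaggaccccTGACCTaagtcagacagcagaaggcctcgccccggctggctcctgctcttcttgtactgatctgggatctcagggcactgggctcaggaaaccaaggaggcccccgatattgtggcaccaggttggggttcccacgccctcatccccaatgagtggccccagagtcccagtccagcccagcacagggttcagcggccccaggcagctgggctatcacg
Plin5, chr17:56117549-56117798: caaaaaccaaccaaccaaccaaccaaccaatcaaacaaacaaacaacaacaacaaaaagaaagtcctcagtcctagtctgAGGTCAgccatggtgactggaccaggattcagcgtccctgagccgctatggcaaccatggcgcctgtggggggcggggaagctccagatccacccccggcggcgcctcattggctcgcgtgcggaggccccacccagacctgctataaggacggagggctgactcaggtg
TAAACA lay 182 bases before the start of Plin1 and 184 before that of Plin4. AGGTCA lay 170 bases before the start of Plin5 shown here, and its reverse complement TGACCT 218 bases before that of Plin2. The other Plin5 window, chr17:56117299-56117548, held neither motif. Over the 14 windows of the 10 genes, TAAACA was in 2 and AGGTCA in 3 (Plin2, and 1 of the windows each of Plin5 and Bscl2). Among all 32851 RefSeq windows of 250 bases, 12.0% held TAAACA and 14.0% held AGGTCA. The direct repeat PPARs bind, searched as 2 copies of AGGTCA with 1 base between them, was in none of the 14 windows and in 0.0335% of all, and the same repeat of AGGNCA, in which N is any base, was in none of the 14 and in 0.338% of all. These matches are descriptions of the letters and do not show binding.

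**Figure D1:**
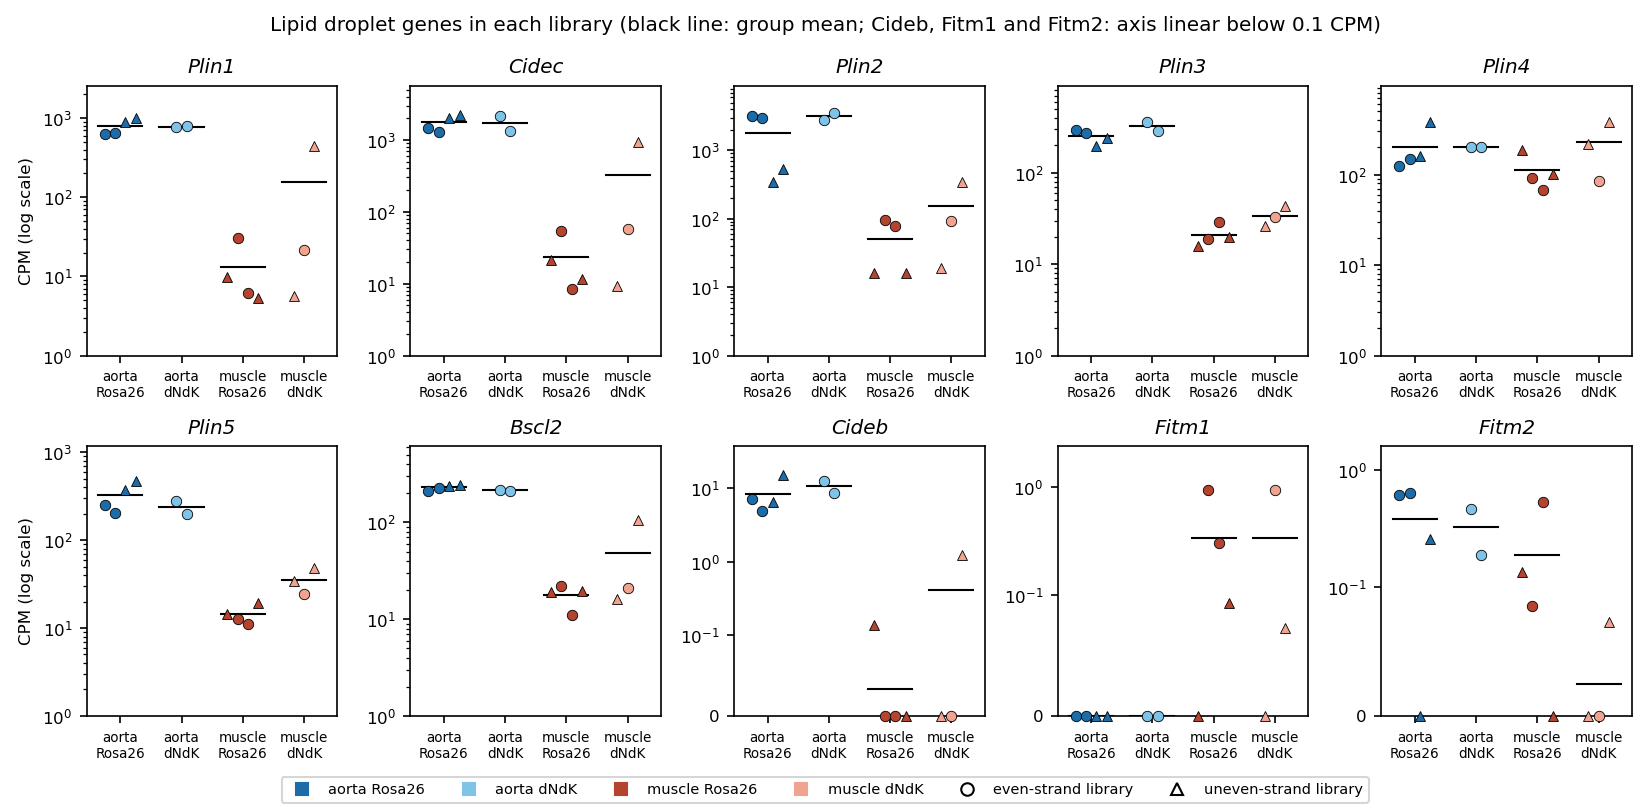
Level of each lipid droplet gene in each library (y axis, CPM on a log scale; x axis, the 4 groups; black lines, group means; circles, even-strand and triangles, uneven-strand libraries). Plin1, Cidec, Plin2, Plin3, Plin5 and Bscl2 sit higher in every aorta library than in the 4 muscle Rosa26 libraries, and Plin4 overlaps. Muscle dNdK 3 is the highest muscle point of every gene but Fitm1 and Fitm2.

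Plin1 and Cidec, the droplet coat of fat cells, were far higher in aorta than in muscle. Plin1, which guards the droplet against lipases until it is phosphorylated, stood at 619, 653, 889 and 1013 CPM in aorta Rosa26 1 to 4 and at 774 and 785 CPM in aorta dNdK 1 and 2. In muscle it was at 9.95, 30.4, 6.25 and 5.41 CPM in Rosa26 1 to 4, at 5.59 and 21.6 CPM in dNdK 1 and 2, and at 445 CPM in dNdK 3. The lowest aorta library thus lay above every muscle library, muscle dNdK 3 included. In the Rosa26 libraries the means were 794 ± 189 and 12.99 ± 11.7 CPM (SD, n = 4 each), a log2 fold change of 5.10 (SE 0.58, edgeR adjusted p = 3.72e-05). Cidec, which passes lipid from small droplets to large ones, stood at 1442, 1277, 2035 and 2243 CPM in aorta Rosa26 and at 2129 and 1334 CPM in aorta dNdK. Muscle held it at 21.4, 53.6, 8.38 and 11.7 CPM in Rosa26, at 9.42 and 56.8 CPM in dNdK 1 and 2, and at 919 CPM in dNdK 3. Its aorta and muscle ranges did not overlap either (log2 fold change 5.37 in Rosa26, SE 0.61, adjusted p = 3.59e-05). Both genes followed Adipoq, the fat cell hormone adiponectin. The ratio of Plin1 to Adipoq lay between 3.38 and 7.60 in all 13 libraries and that of Cidec between 5 and 13.1, while the ratio of Plin2 ran from 1.72 to 46.4, of Plin5 from 0.373 to 47.0 and of Plin4 from 0.757 to 296. Adipoq itself had only 5 counts in muscle dNdK 1, so the muscle ratios are coarse. How much of the tissue difference comes with the fat in the aorta samples was not tested.

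Plin2 and Plin3, the perilipins of most cell types, were also higher in aorta. Plin2 stood at 3227, 2952, 348 and 529 CPM in aorta Rosa26 1 to 4 and at 2795 and 3486 CPM in aorta dNdK. In muscle it was at 16.003, 95.7, 77.8 and 16.3 CPM in the Rosa26 libraries, and dNdK 1 to 3 held 18.8, 92.8 and 346 CPM. Aorta Rosa26 3 and 4 were far below the other 4 aorta libraries, and the lowest of them lay next to muscle dNdK 3. The Rosa26 means were 1764 ± 1537 and 51.4 ± 41.4 CPM (SD, n = 4 each), and the log2 fold change was 4.21 (SE 0.87, adjusted p = 0.00193). Without the aorta libraries that held heart RNA it was 2.29, and those 2 were the ones with high Plin2 among the Rosa26. Plin3, also known as TIP47, moves from the cytosol onto new droplets. It stood at 291, 275, 197 and 238 CPM in aorta Rosa26 and at 356 and 288 CPM in aorta dNdK. In muscle it was at 16.003, 18.9, 28.7 and 19.8 CPM in the Rosa26 libraries, and dNdK 1 to 3 held 26.1, 32.6 and 43.6 CPM, so all lay below every aorta library. The log2 fold change in Rosa26 was 2.72 (SE 0.23, adjusted p = 5.23e-06).

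Of the 8 members tested in Rosa26, Plin4 was the 1 whose tissue ranges overlapped, and Plin5 was higher in aorta. Plin4, which coats small nascent droplets, stood at 124, 147, 158 and 379 CPM in aorta Rosa26 and at 199 and 204 CPM in aorta dNdK. Its muscle levels were 187, 91.7, 68.0 and 102 CPM in Rosa26 and 218, 84.4 and 380 CPM in dNdK 1 to 3. Its log2 fold change in Rosa26 was 0.02 (SE 0.44, adjusted p = 0.966), and it was −0.62 without aorta Rosa26 4 and reached 0.85 (adjusted p = 0.0838) with library size alone as the scale. Plin5, the perilipin that links droplets to mitochondria, stood at 249, 201, 376 and 467 CPM in aorta Rosa26 and at 277 and 196 CPM in aorta dNdK. The muscle libraries held 14.4, 12.6, 11.1 and 19.2 CPM in Rosa26 and 34.6, 24.2 and 47.9 CPM in dNdK 1 to 3. Every aorta library lay above every muscle library (log2 fold change 3.65 in Rosa26, SE 0.36, adjusted p = 1.25e-05).

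Bscl2 was higher in aorta and varied little there (SD 13.6 on a mean of 225 CPM, n = 6). Seipin, its product, sits where a droplet joins the endoplasmic reticulum and feeds its growth. It stood at 213, 227, 237 and 244 CPM in aorta Rosa26 and at 216 and 211 CPM in aorta dNdK. In muscle it was at 19.0, 21.9, 10.97 and 19.5 CPM in Rosa26, at 16.2 and 20.9 CPM in dNdK 1 and 2, and at 107 CPM in dNdK 3. The log2 fold change in Rosa26 was 2.83 (SE 0.25, adjusted p = 5.68e-06). Cideb, the CIDE protein known from liver, was read at 4.84 to 15.1 CPM in the 6 aorta libraries (59 to 108 counts each). In muscle it had 1 count in Rosa26 1, 17 counts in dNdK 3 and none in the other 5 libraries. Its pooled Rosa26 counts of 253 and 1 gave a ratio of 303 with a counting interval of 53.9 to 12018 (exact, 95%), and the edgeR test passed (adjusted p = 6.47e-05). Intervals and floors cover counting error only, as PCR copies are not separate molecules. Fitm1 and Fitm2, which help package triglyceride into new droplets, were near the floor of detection and were not tested. Fitm1, the FIT protein known from skeletal muscle, had 0, 11, 4 and 1 counts in muscle Rosa26, 0, 10 and 1 in muscle dNdK and 0 in each of the 6 aorta libraries. With 3 counts over the group as the limit for a 0, it was at least 4.45-fold higher in muscle Rosa26 than in aorta Rosa26. Of those 16 counts 11 were in muscle Rosa26 2, and without that library it was at least 1.91-fold higher. Without dNdK 3, the even-strand muscle libraries held 25 of its counts and the uneven-strand ones 1, with no overlap. It was the 1 member with counts in muscle and none in aorta. Fitm2 had 0 to 8 counts in each library, and its pooled Rosa26 ratio of aorta to muscle was 2.00 with an interval of 0.819 to 5.17, so no difference was detectable there at this depth. Over all 13 libraries it had 21 counts in aorta and 10 in muscle, a ratio of 2.82 with a counting interval of 1.27 to 6.71. Its Rosa26 levels overlapped between the tissues, and its dNdK levels, of 0 to 4 counts, did not.

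**Figure D2:**
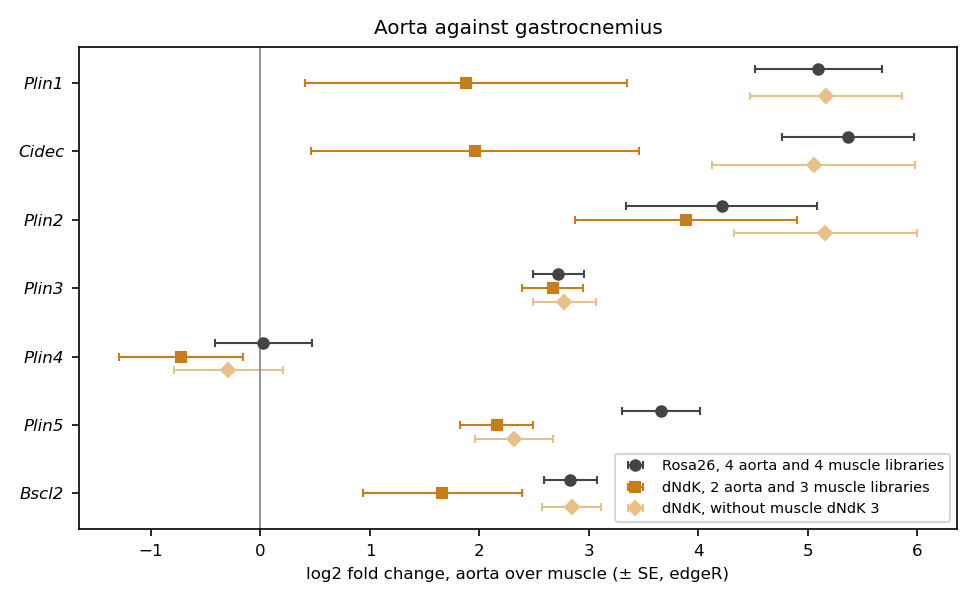
Log2 fold change of aorta over gastrocnemius (x axis, ± SE from edgeR) for 7 lipid droplet genes (y axis), in Rosa26, in dNdK, and in dNdK without muscle dNdK 3. Plin1, Cidec and Bscl2 lie at 5.10, 5.37 and 2.83 in Rosa26 and return to 5.17, 5.05 and 2.84 in dNdK once muscle dNdK 3 is left out, while Plin4 lies at 0.02, −0.73 and −0.29.

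Of the 10 genes, 8 passed the filter on low counts in the Rosa26 libraries, and 7 were higher in aorta at an adjusted p under 0.05, with none lower. Over all 11058 genes tested, 58.4% passed, 31.0% higher and 27.5% lower. The 7 genes were also those whose groups did not overlap, as was so for 61.8% of all genes. The median log2 fold change of the 8 was 3.93, beside 0.08 over all genes. With library size alone as the scale the median of all genes moved to 0.96. The share of calls that were higher went from 53.0% to 82.8%, and 7 members and 7552 of 11058 genes were called. The even-strand libraries alone called 7 members and 6374 of 11683 genes, and the uneven-strand ones 7 members and 5501 of 10910 genes. Without the libraries with heart RNA 7 members and 6020 of 11347 genes were called.

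The dNdK libraries, which the Rosa26 contrast did not use, gave fewer calls with muscle dNdK 3 than without it. With all 5 of them, 3 of 8 tested members were higher in aorta (Plin2, Plin3 and Plin5) and none lower, where 15.8% of 11426 genes passed, 5.22% higher and 10.5% lower. With library size alone the share of calls that were higher went from 33.1% to 68.4% and the median of all genes from −0.011 to 0.58. Groups did not overlap for 7 of the 8 members, as for 65.2% of genes. Without muscle dNdK 3, 7 members were called, all higher in aorta, where 3126 of 11188 genes passed, 1479 higher and 1647 lower. With all 5 libraries 1801 genes passed, so calls rose over all genes as well. The log2 fold change of Plin1 went from 1.88 (SE 1.47, adjusted p = 0.407) to 5.17 (SE 0.69, adjusted p = 0.00653), that of Cidec from 1.96 (SE 1.49) to 5.05 (SE 0.92, adjusted p = 0.0151), and that of Bscl2 from 1.66 (SE 0.73) to 2.84 (SE 0.27, adjusted p = 0.00304). Cideb had no count in muscle dNdK 1 and 2 and was at least 60.9-fold higher in aorta dNdK than in those. Plin2 passed with all 5 libraries only at the threshold (log2 fold change 3.89, SE 1.02, adjusted p = 0.04996) and stood at 5.16 without muscle dNdK 3. Plin3 was at 2.67 (SE 0.28) and Plin5 at 2.16 (SE 0.33) with all 5. Leaving out aorta dNdK 1 or 2 left 1 member called, and the lone aorta library is then assumed to vary like the muscle ones.

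**Figure D3:**
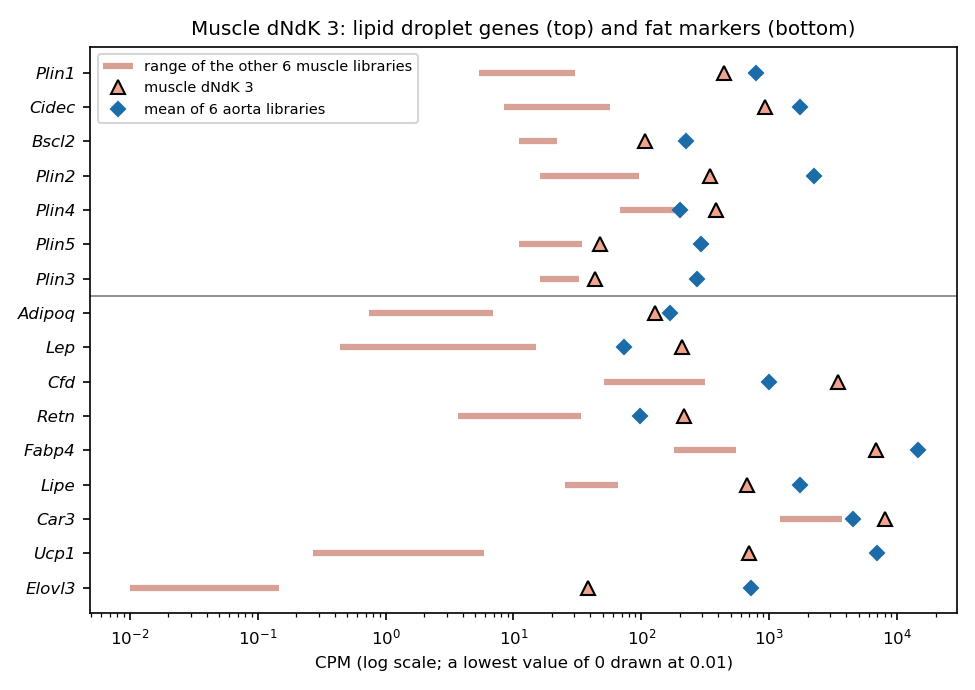
Lipid droplet genes (top) and fat cell markers (bottom) in muscle dNdK 3 (triangles), with the range of the other 6 muscle libraries (bars) and the mean of the 6 aorta libraries (diamonds); the x axis is CPM on a log scale. Plin1 at 445 CPM and Cidec at 919 CPM lie outside the bars, as does Adipoq at 129 CPM, while Plin5 and Plin3 lie next to the ends of their bars.

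Muscle dNdK 3 had high Plin1, Cidec and adipocyte markers beside its skeletal muscle markers. Whether they came with fat in that library was not tested. Its Plin1 was 14.7 times and its Cidec 16.2 times the highest of the other 6 muscle libraries, and Bscl2 was 4.89 times, Plin2 3.62 times, Plin4 1.74 times, Plin5 1.39 times and Plin3 1.34 times the highest. Set against the mean of the 6 aorta libraries, Plin1 reached 56.4%, Cidec 52.7% and Bscl2 47.5%, whereas Plin2, Plin3 and Plin5 reached 15.6%, 15.9% and 16.3% and Plin4 188%. The fat markers moved with them. The 7 adipocyte markers lay between 38.9% (Lipe) and 343% (Cfd, the protease adipsin) of the aorta mean, with Adipoq at 76.7%. Of the 7 brown fat markers Elovl3 reached 5.28%, Dio2 9.46%, Ucp1 10.0% and Ebf2 45.9%. Cox8b at 28.1% and Cox7a1 at 46.0% lay within the range of the other muscle libraries, and Zic1 had 1 count. Of the 8 heart markers Myh6 and Myl7 were at 0 in it, and Myl4, Tnnt2, Tnni3 and Actc1 lay within the range of the other muscle libraries. Sln at 709 CPM and Nppa at 0.585 CPM (8 counts) lay above the highest of those, 314 and 0.186 CPM. The 7 skeletal muscle markers summed to 119955 CPM, beside 144914 to 158866 CPM in the other 6. Cideb had 17 counts there and 1 in the other 6 together, a ratio of 75.1 with a counting interval of 11.8 to 3140.

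**Figure D4:**
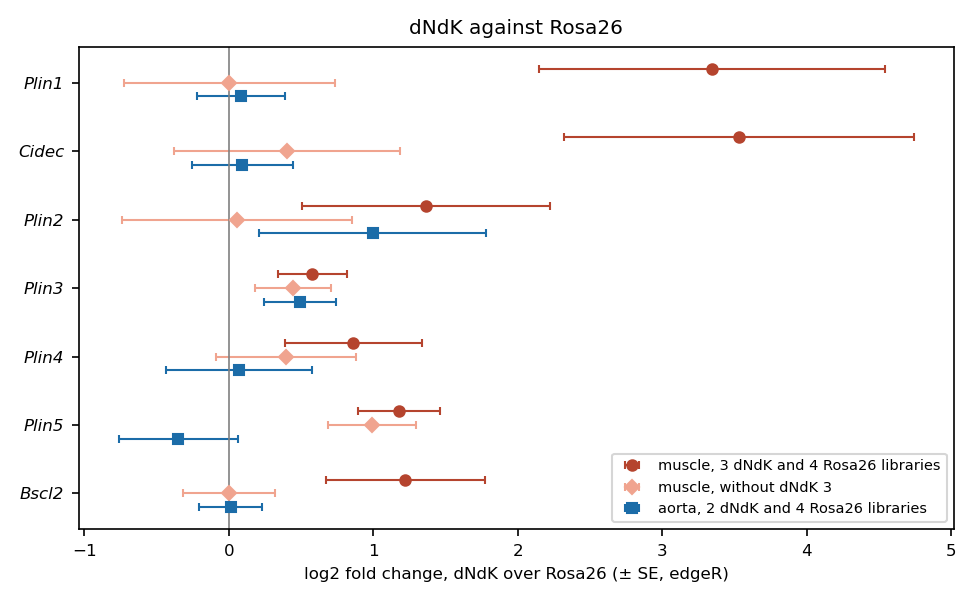
Log2 fold change of dNdK over Rosa26 (x axis, ± SE from edgeR) for 7 lipid droplet genes (y axis), in muscle, in muscle without dNdK 3 and in aorta. Plin1 and Cidec lie at 3.34 and 3.53 in muscle and at 0.01 and 0.40 without dNdK 3, whereas Plin5 lies at 1.18 and 0.99; no value passed the adjusted threshold.

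Between genotypes no member changed in aorta at an adjusted p under 0.05. Of the 8 tested, 0 passed by edgeR and 0 by DESeq2, and 0 had an unadjusted p under 0.05, where edgeR called 1 of 11920 genes (0.00839%), DESeq2 called 13, and 713 had an unadjusted p under 0.05. No member had groups that did not overlap, as 18.9% of all genes had. The largest estimates were those of Plin2 (log2 fold change 0.99, SE 0.79, adjusted p = 0.790) and Plin3 (0.49, SE 0.25, adjusted p = 0.757), and Bscl2 was the closest to 0 (0.01, SE 0.22). The Plin2 estimate followed the choice of libraries. Both dNdK aorta libraries were even-strand, and against the even-strand Rosa26 libraries alone Plin2 was at 0.20 (SE 0.21), whereas against Rosa26 3 and 4, the libraries without heart RNA, dNdK 1 gave 2.73 (SE 0.50, adjusted p = 0.0842).

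In muscle no member passed either, and the estimates of the fat cell coat rested on dNdK 3. Of the 7 tested, 0 passed by edgeR and 0 by DESeq2, beside 0% of 10491 genes by edgeR (792 with an unadjusted p under 0.05) and 7 genes by DESeq2. All 7 estimates were higher in dNdK, 4 of them with an unadjusted p under 0.05 (Plin1, Plin3, Plin5 and Cidec). Plin1 went from 3.34 (SE 1.20, adjusted p = 0.656) to 0.01 (SE 0.73) without dNdK 3, Cidec from 3.53 (SE 1.21) to 0.40 (SE 0.78) and Bscl2 from 1.22 (SE 0.55) to 0.00 (SE 0.32). Plin2 went from 1.36 (SE 0.86) to 0.06 (SE 0.80) and Plin4 from 0.86 (SE 0.47) to 0.40 (SE 0.48). Plin3 moved least of these, from 0.58 (SE 0.24) to 0.45 (SE 0.26).

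Plin5 was the 1 member whose muscle groups did not overlap, which 6.66% of genes also showed. Its 3 dNdK libraries, at 24.2 to 47.9 CPM, lay above the 4 Rosa26 libraries at 11.1 to 19.2 CPM, with means of 35.6 ± 11.9 (SD, n = 3) and 14.3 ± 3.51 CPM (SD, n = 4). The log2 fold change was 1.18 (SE 0.28), rank 17 of 10491 genes by p, with an unadjusted p of 0.00222 and an adjusted p of 0.656 by edgeR. Without dNdK 3 it was 0.99 (SE 0.30, adjusted p = 0.973) and in the uneven-strand libraries alone 1.12 (SE 0.31, adjusted p = 0.441). The even-strand muscle libraries include 1 dNdK library, dNdK 2, which is then assumed to vary like the 2 Rosa26 ones, and gave 0.96 (SE 0.27, adjusted p = 0.327). The difference had the same direction with and without dNdK 3 and did not pass the correction in any of these fits. In aorta the Plin5 estimate was −0.35 (SE 0.41, adjusted p = 0.852), and 0.25 in the even-strand libraries alone. The test of the genotype effect in muscle minus that in aorta gave 1.505 for Plin5 (SE 0.53, adjusted p = 0.583), 3.41 for Cidec and 3.23 for Plin1. Of 8 members 0 passed by edgeR and 0 by DESeq2, as 0% of 12318 genes by edgeR, with 1044 genes and 1 member, Plin5, at an unadjusted p under 0.05. Without muscle dNdK 3 the same values were 1.30, 0.32 and −0.08.

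**Figure D5:**
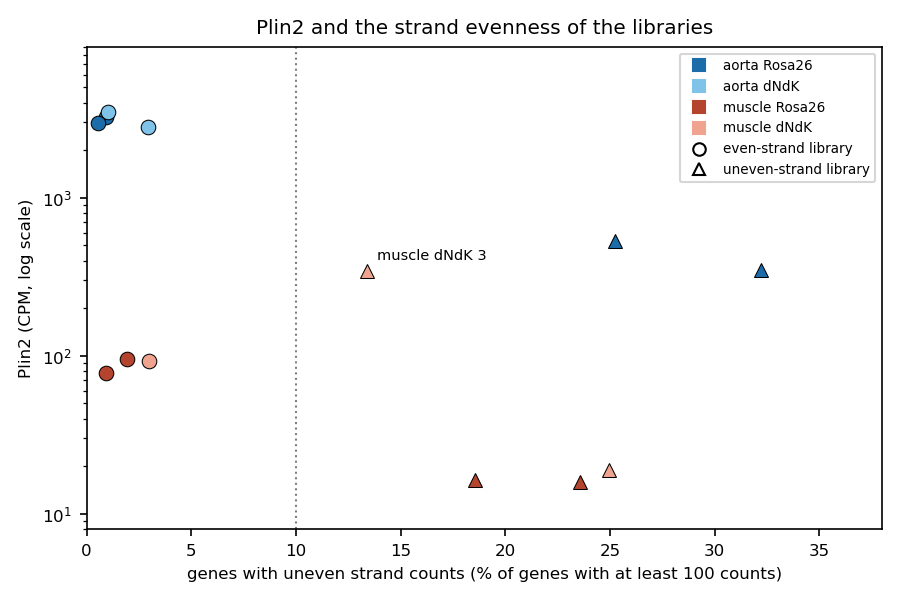
Plin2 level (y axis, CPM on a log scale) against the share of genes with uneven strand counts (x axis, % of genes with at least 100 counts; dotted line at 10%) in the 13 libraries, coloured by group. The even-strand libraries of aorta lie at 2795 to 3486 CPM and the uneven-strand ones at 348 and 529 CPM. Those of muscle without dNdK 3 lie at 77.8 to 95.7 and 16.003 to 18.8 CPM. Muscle dNdK 3, uneven-strand, lies at 346 CPM.

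The level of Plin2 split aorta the way the strand counts did, and muscle only with dNdK 3 left out. Muscle dNdK 3, an uneven-strand library, held 346 CPM of Plin2, above every other muscle library. In aorta the 4 even-strand libraries held 3115 ± 305 CPM (SD) and the 2 uneven-strand ones 439 ± 129 CPM, a ratio of 7.10 without overlap. In muscle without dNdK 3 the 3 even-strand libraries held 88.7 ± 9.58 CPM and the 3 uneven-strand ones 17.1 ± 1.56 CPM, a ratio of 5.20 without overlap. Only 0.906% of genes in aorta and 0.238% in muscle stood as far toward the even-strand libraries. These sets were seen in the data and carry no label, so the ratios are descriptions with no test. Within either set the tissue difference of Plin2 was close to the pooled one in size and tighter, with a log2 fold change of 4.23 (SE 0.27) in even-strand and 3.94 (SE 0.34) in uneven-strand Rosa26 libraries, against an SE of 0.87 for all 8. The set did not show in the strand counts of Plin2 itself, of which 51.3% to 61.7% lay on the first strand in every library. Of the 4 even-strand aorta libraries 3 held heart RNA, and the fourth, aorta dNdK 1, had Myh6 at 0.35 CPM and Plin2 at 2795 CPM. The sets also follow the numbers that end the deposited names of the Rosa26 libraries: numbers 50 and 30 are uneven-strand in both tissues and number 53 is even-strand in both. Number 142, shared in dNdK, does not follow: aorta dNdK 1 is even-strand (2.94% of genes uneven) and muscle dNdK 3 uneven-strand (13.4%). What these numbers mean is not given in the sources used here, so whether the splits in aorta and muscle are independent of each other cannot be told. The sets also differed in unmapped reads, at 7.21% and 7.45% in the uneven-strand aorta libraries and 4.62% to 5.62% in the even-strand ones. In muscle without dNdK 3 these were 5.81% to 6.47% and 5.23% to 5.58%, and muscle dNdK 3 had 5.18%. Both uneven-strand aorta libraries were Rosa26, and both dNdK ones were even-strand. Run and RNA quality are not given in the sources used here. The part of any of these in the Plin2 level was not tested.

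With muscle dNdK 3 left out, no other member split both tissues without overlap. In aorta 5 of 8 members did not overlap between the strand sets, beside 34.0% of genes. Plin2 and Plin3 were higher in even-strand libraries (Plin3 by 1.39 times). Plin1, Plin5 and Bscl2 were higher in uneven-strand ones, by 1.34, 1.82 and 1.11 times. The even-strand aorta set held both dNdK libraries and every aorta library with heart RNA, and the uneven-strand set was Rosa26 alone. The parts of strand set, genotype and heart RNA in these differences were not tested. In muscle without dNdK 3, 2 of 7 did not overlap, beside 28.2% of genes: Plin2, and Plin4, which was 2.08 times higher in uneven-strand libraries. The first-strand share of Plin3 was 71.5% and 77.01% in the uneven-strand aorta libraries and 51.5% to 54.2% in the even-strand ones, so for Plin3, unlike Plin2, the strands themselves shifted. The share also differed for Plin1 (22.2% and 28.8% against 37.2% to 47.5%), Plin5 (40.9% and 39.3% against 49.3% to 55.9%) and Bscl2 (74.1% and 74.5% against 62.4% to 69.9%). Plin2 is a known target of the PPARs, and of 18 PPAR regulators and targets 6 did not overlap in aorta, a share near that of all genes. Pparg, Cebpb and Angptl4, a lipase inhibitor, were higher in even-strand libraries (Angptl4 by 3.81 times), and Ppara, Rxra and Ppargc1a in uneven-strand ones. In muscle 4 of 17 did not overlap, with Pparg and Fabp4 higher in even-strand and Ppargc1a and Ucp3 in uneven-strand libraries, and Angptl4 overlapped. Within the sets the tissue difference of Plin1 was 4.19 (SE 0.59) in even-strand and 6.13 (SE 0.40) in uneven-strand Rosa26 libraries. That of Cidec was 4.53 (SE 0.70) and 6.18 (SE 0.40), and the difference between sets was not tested.

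Genes that empty the droplet were higher in aorta as well, and those that fill it were higher or did not pass. The counts below stand beside 31.0% of all genes higher and 27.5% lower. Of the lipolysis list of 9 genes, 8 were tested in Rosa26 and 8 were higher in aorta. Pnpla2, the first lipase of triglyceride breakdown, had a log2 fold change of 2.77 (SE 0.23), Lipe, the hormone-sensitive lipase, 4.62 (SE 0.38) and Mgll, the monoglyceride lipase, 3.81 (SE 0.29). Of the 16 genes of triglyceride synthesis, 14 were tested, 8 were higher and none was lower. Dgat2 and Dgat1, which make the last bond of triglyceride, had log2 fold changes of 5.05 (SE 0.42) and 3.52 (SE 0.33), and Mogat1 5.41 (SE 0.50). The list of 20 other droplet proteins was mixed, with 7 higher and 4 lower of 17 tested, near the shares of all genes. Ldah, a droplet hydrolase, was at 2.98 (SE 0.24), Tmem135 at 2.86 (SE 0.25) and Apmap, an adipocyte membrane protein, at 2.78 (SE 0.31). Of the 22 PPAR regulators and targets, 17 were tested, 12 higher and 3 lower. Pparg, the master factor of fat cells, was at 4.74 (SE 0.42), Fabp4, its fatty acid carrier target, at 4.80 (SE 0.32) and Slc25a20, the mitochondrial carnitine carrier, at 2.88 (SE 0.20). The medians of the 4 lists were 3.69, 1.76, 0.30 and 2.39, beside 0.08 over all genes.

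Between genotypes no gene of these 4 lists passed in either tissue by edgeR. In aorta the smallest p-values were those of Pnpla3, a lipase relative that sits on droplets (log2 fold change 1.11, SE 0.22, unadjusted p = 0.000888, adjusted p = 0.757), and Faah, a fatty acid amide hydrolase (−2.75, SE 0.94). Agpat2 and Gpat4, acyltransferases of triglyceride synthesis, were at 1.23 (SE 0.49) and −0.84 (SE 0.48). Acsl3, which activates fatty acids on new droplets, was at 1.39 (SE 0.61), Faf2 at 0.49 (SE 0.26), Cebpb at 0.60 (SE 0.22) and Pparg at 0.52 (SE 0.26). Apart from Faf2, these aorta genes had groups that did not overlap, as had 18.9% of all genes. In muscle Pnpla3 was at 3.80 (SE 1.09), Dgat2 at 3.38 (SE 1.12) and Fabp4 at 2.98 (SE 0.89), and their groups overlapped. Mgll at 1.67 (SE 0.53), Gpat3, an acyltransferase, at 1.24 (SE 0.34), Cav1, the caveolae protein caveolin, at 0.98 (SE 0.27) and Slc25a20 at 0.76 (SE 0.23) had groups that did not overlap, as had 6.66% of all genes. Tmem135 was at 1.06 (SE 0.43), and its groups overlapped. All these genes were picked by the smallest p in the same comparisons, so their lack of overlap is no separate result. Muscle dNdK 3 is among these libraries, with 6803 CPM of Fabp4 beside 179 to 547 CPM in the other 6.

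Genes with the most similar pattern were found by the root mean square difference of log2 CPM, each gene centred on its own mean, over the 13 libraries and 9966 genes. For Plin1 they were Adipoq at 0.27, Cidec at 0.28 and Dgat2, the acyltransferase above, at 0.44. For Plin2 they were Dbi, the acyl-CoA binding protein, at 0.53, Shtn1 at 0.74 and Akr1c13, an aldo-keto reductase, at 0.79. Dbi had 1992 to 8617 CPM in aorta, 1186 CPM in muscle dNdK 3 and a median of 193 CPM in the other 6 muscle libraries. For Plin5 they were Cdk6, a cyclin-dependent kinase, at 0.33, Slc25a22, the mitochondrial glutamate carrier, at 0.35 and Stimate at 0.35. The 13 points share 2 tissues and the strand sets. Fitm1 lay below the minimum level of this comparison.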

How the data were processed

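Per the labels, RNA of snap-frozen tissue was made into AmpliSeq mouse transcriptome libraries and read on an Ion Torrent sequencer. The authors deposited STAR tables of raw read counts per gene (mm10, GRCm38.p6; STAR 2.5.2b, edgeR 3.28.1 and limma 3.42.2 per the submitters' processing notes). The counts that ignore strand were used, and the 4 summary lines of each table were left out. Genes took 86.7% to 91.4% of the reads of a library.

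Tests used edgeR 4.0.16 in R 4.3.3 (quasi-likelihood F test, filterByExpr by group, TMM scaling, Benjamini-Hochberg adjustment over all genes tested, threshold 0.05), with SE taken from the fold change and F. Fold changes are TMM-scaled and CPM values are not. Alternatives were DESeq2 1.42.0, limma voom 3.58.1, no filter on low counts, each strand alone, 1 library left out, a replicate block, all 13 libraries in 1 fit, the libraries without heart RNA, and, added after seeing the data, library size alone and the strand sets. The script was tested on simulated data.

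All 10 members are named. From each of the 4 pathway lists, the 3 genes with the smallest p between the tissues and the 2 with the smallest p in each genotype comparison are named, with marker genes where they move with a result and the 3 genes most like Plin1, Plin2 and Plin5. Members and lists were chosen with earlier results of these data known. Promoter letters are from RefSeq, and all 10 members matched.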

Additional observations from a re-analysis of the deposited data

Results flagged for a closer look

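Over the 19 sets of 4 libraries with any spread, the gap of the highest or lowest library to its nearest neighbour, divided by the range, was above Dixon's 95% critical value in 2, and chance gives about 1 in 20. Plin4 in aorta Rosa26 4 was at 379 CPM, with the next library at 158 CPM and the lowest at 124 CPM (gap over range 0.864). Cideb in muscle Rosa26 had 1 count in Rosa26 1 and 0 in the other 3 (gap over range 1.0), which is 1 read and no more.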

How the results depend on the processing

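In the tissue comparison of Rosa26 all 22 alternatives called 6 to 8 members (8 with no filter on low counts, the added one being Fitm1, lower in aorta), and the log2 fold changes of the 7 called members kept their sign. Plin4, never called, was reversed by limma voom (−0.085), the second strand alone (−0.035), the replicate block (−0.058), the block on the numbers that end the deposited names (−0.012), the strand set as a term (−0.016) and the even-strand libraries alone (−0.16), and ranged from −0.62 to 0.39 with 1 library left out. Muscle dNdK 2 is the 1 even-strand dNdK muscle library and aorta dNdK 1 the 1 dNdK aorta without heart RNA, so those fits assume that it varies like the other libraries. In dNdK the count of 3 members became 7 with the replicate block, in which muscle dNdK 3 is alone in its block and adds nothing, 7 in the even-strand libraries alone, 5 with all 13 libraries in 1 fit, 1 without the libraries with heart RNA, and 1 to 7 with 1 library left out. Plin4 there was 0.63 with the strand set as a term and 0.59 in the even-strand libraries alone.

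In aorta 0 members were called under all 18 alternatives. Reversed estimates were Cidec and Bscl2 with the first strand alone (−0.065 and −0.029), Plin1 and Plin4 with the second (−0.034 and −0.10), Plin5 with the replicate block (0.24), the strand set as a term (0.25) and the even-strand libraries (0.25), Plin1, Plin4 and Bscl2 once the aortas holding heart RNA were dropped (−0.23, −0.40 and −0.076), and Plin1, Plin4, Cidec and Bscl2 with library size alone (−0.025, −0.00081, −0.014 and −0.11). With 1 library left out Plin1 ranged from −0.017 to 0.31, Plin4 from −0.10 to 0.69, Cidec from −0.28 to 0.40 and Bscl2 from −0.022 to 0.11. In muscle 0 members were called and no estimate was reversed under 19 alternatives. Between the tissues' genotype effects 0 were called under 23. There Plin2 was −0.52 with limma voom, Plin3 −0.20 with the second strand alone, Plin2 and Plin3 −1.34 and −0.19 once those aortas were dropped, Plin4 −0.27 with the strand set as a term, and Plin1, Plin2, Plin4 and Cideb −0.30, −0.18, −0.75 and −1.02 in the even-strand libraries. With 1 library left out Plin1 ranged from −0.075 to 4.07, Plin2 from −0.95 to 0.85, Plin3 from −0.082 to 0.24, Cideb from −2.30 to 5.11 and Bscl2 from −0.037 to 1.56. The cause of these changes was not tested.

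Over all genes the aorta genotype comparison called 1 gene, but 163 with the replicate block, 179 in the even-strand libraries, 30 without the libraries with heart RNA, 13 with DESeq2, 3 with the strand set as a term, and 0 with either strand alone or all 13 libraries. The muscle one called 0, but 7 with DESeq2 and 39 in the even-strand libraries (1 dNdK library), and the difference of the effects 0, but 6 and 2. The dNdK tissue comparison called 1801, but 3141 with DESeq2, 1145 with the first strand alone, 3035 with the block, 3334 with all 13 libraries, 369 without the libraries with heart RNA, 630 with the strand term and 4042 in the even-strand libraries. With 1 library left out the 4 counts ranged from 0 to 1, 0 to 3, 0 to 0 and 322 to 3126.

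Deviations of Rosa26 libraries with the same title number from their group means correlated over genes at −0.33, 0.32, −0.34 and 0.27. Title numbers 1 and 3 each pair an even-strand with an uneven-strand library, and 2 and 4 pair libraries of the same set. The numbers that end the deposited names, whose meaning is not given in the sources used here, gave 0.30, 0.35 and 0.27 for 3 numbers shared in Rosa26. Each of those 3 pairs libraries of the same set, so these Rosa26 correlations cannot tell a shared number from a shared strand set. The 1 number shared in dNdK (aorta dNdK 1, even-strand, and muscle dNdK 3, uneven-strand) gave 0.16. With the 3 numbers shared in Rosa26 as a replicate block 7 members were called in Rosa26. The uneven-strand libraries alone gave no value for the aorta and dNdK comparisons, which lack such libraries in 1 group. At 0.219 to 0.765 CPM for 3 counts, depth limits Fitm1, Fitm2 and, in muscle, Cideb.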
